A study of Mus musculus with 2 samples.

Results

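Complex I genes, the nuclear genes for subunits and assembly factors of mitochondrial NADH:ubiquinone oxidoreductase, were taken as all rows of the deposited count tables whose symbol starts with Nduf. This gave 45 of 23282 rows, and all 45 passed the filter of at least 40 counts summed over both libraries, as did 11660 rows in all. By symbol, 11 are Ndufs or Ndufv genes, 27 are Ndufa, Ndufb or Ndufc genes and 7 are Ndufaf assembly factors. The control group was 3T3-L1 cells, mouse embryo fibroblasts kept as a line and widely used because hormones make them become fat cells, treated with sicontrol, a control siRNA. The other group was 3T3-L1 cells treated with sipink1, an siRNA against Pink1. The PINK1 protein is a kinase on mitochondria that have lost their membrane potential, where it starts their clearance. Each group was 1 library of 3′ transcript tags, both labelled as murine adipocytes, and neither the siRNA dose nor any time point was stated, so no difference below has a replicate check.

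Complex I takes electrons from NADH, passes them along a flavin and a chain of iron-sulfur clusters to ubiquinone, and pumps protons across the inner mitochondrial membrane. It is L-shaped: the matrix arm holds the N module, where NADH is oxidised, and the Q module, where ubiquinone is reduced, and the membrane arm holds the proton pumps. The conserved core subunits do the catalysis, the accessory subunits surround and stabilise them, and the assembly factors help to build the complex and then leave it. The proton-pumping core subunits are encoded by mitochondrial DNA and were not analysed here. Fat cells use the respiratory chain to supply energy and to oxidise the NADH made from fatty acids and glucose.

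The libraries held 13803174 counts (control) and 14214768 counts (Pink1 siRNA). Levels are given as CPM, counts scaled by effective library size, and ratios as Pink1 siRNA over control siRNA. Pink1 itself was at 36.5 CPM in the control library and 25.1 CPM in the Pink1 siRNA library, a ratio of 0.687 with a 95% counting interval of 0.598 to 0.788. That interval covers counting error only, and such intervals left out 1 for 5967 of the 11660 measured genes and for 25 of the 45. A second, wider interval divides both counts by how far the 2 libraries differed beyond counting error over genes at a similar level. For Pink1 it ran from 0.445 to 1.05. Of 12 adipocyte markers 11 were measured, with a summed level of 2603 CPM in the control and 2814 CPM in the Pink1 siRNA library, and Lep was at 0 counts in both, which allows up to 0.214 CPM. Single markers went both ways, with Retn (ratio 1.49), Cd36 (1.35) and Cidec (1.25) higher and Plin1 (0.607) and Slc2a4 (0.510) lower. The 7 fibroblast and preadipocyte markers summed to 31369 and 32855 CPM, with the preadipocyte gene Dlk1 at 8326 and 9329 CPM. Markers of macrophages (4.43 and 3.28 CPM), endothelium (8 and 7 counts) and skeletal muscle (1.07 and 0.714 CPM) were low when summed over each list. The part of cell composition in the ratios below was not tested, and in bulk RNA fewer cells of a type and less RNA per cell cannot be told apart.

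The promoters of 39 of the 45 genes were found in the RefSeq promoter table (GRCm38.p6, the assembly behind mm10), in 41 windows. NRF1 is a transcription factor known to act on respiratory chain genes. Its core letters GCGCATG were looked for on both strands of the 250 bases before each start. They occurred in 12.2% of the 41 windows, against 3.24% of all 32851 windows in the table. The stretches around these matches are shown because the NRF1 letters were the motif whose share stood farthest above that of all promoters, with the match in capitals, 5′ to 3′ on the gene's strand. Where the letters lie on both strands the overlapping matches form 1 longer capital run.
Ndufa11, chr17:56717662-56717751, plus strand: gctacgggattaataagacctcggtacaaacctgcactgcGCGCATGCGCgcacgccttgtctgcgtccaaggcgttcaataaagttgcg
Ndufb6, chr4:40279452-40279538, minus strand: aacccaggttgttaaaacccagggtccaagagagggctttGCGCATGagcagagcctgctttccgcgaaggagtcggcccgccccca
Ndufa6, chr15:82354327-82354413, minus strand: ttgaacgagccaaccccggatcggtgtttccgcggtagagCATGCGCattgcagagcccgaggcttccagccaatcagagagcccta
Ndufaf4, chr4:24897930-24898019, plus strand: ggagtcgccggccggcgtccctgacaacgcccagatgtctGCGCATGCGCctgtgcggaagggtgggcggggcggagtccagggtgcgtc
Ndufa8, chr2:36049339-36049385, minus strand: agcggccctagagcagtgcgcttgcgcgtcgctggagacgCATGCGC

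The motif AAGGTCA, bound by estrogen-related receptors and other nuclear receptors, was in 7.32% of the members' windows and in 4.08% of all windows. These are 3 of 41 windows. The matches are shown in the same way because Ndufb2 and Ndufb4 are among the genes listed below as farthest from 1.
Ndufb2, chr6:39592344-39592430, plus strand: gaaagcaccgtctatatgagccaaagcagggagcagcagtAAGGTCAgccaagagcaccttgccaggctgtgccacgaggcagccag
Ndufb4, chr16:37654377-37654463, minus strand: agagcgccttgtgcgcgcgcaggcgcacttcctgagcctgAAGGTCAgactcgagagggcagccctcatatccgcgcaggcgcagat
Ndufs5, chr4:123718368-123718436, minus strand: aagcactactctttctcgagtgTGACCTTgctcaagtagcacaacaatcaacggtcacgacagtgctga

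The ETS family core CCGGAAG was in 9.76% of member windows (6.91% of all), the YY1 core AAGATGG in 0 of 41 (4.49% of all), and the NF-Y box CCAAT in 31.7% (33.8% of all). No match of the 5 motifs was found in 19 of the 39 genes. The genes with an NRF1 match had log2 ratios from -0.12 (Ndufa8) to 0.46 (Ndufa11), so they lay on both sides of 0. The 4 genes with an ETS match had log2 ratios from -0.02 (Ndufb7) to 0.34 (Ndufb6). The 3 genes with the receptor motif had log2 ratios of 0.39 (Ndufb2), 0.36 (Ndufb4) and 0.16 (Ndufs5). That motif was shown because of the ratios of Ndufb2 and Ndufb4, so these values cannot tie it to higher ratios. A match describes the letters of a window and is not evidence of binding.

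Complex I transcripts differed little between the libraries. All 45 were within 1.5-fold of each other in the 2 libraries, against 87.0% of all measured genes, and 34 of 45 were within 1.2-fold. Ratios were above 1 for 27 genes (60%) and below 1 for 16, and 2 genes (Ndufb8 and Ndufaf6) had equal counts. Over all measured genes 50.3% of ratios were above 1. The median log2 ratio of the 45 was 0.03, beside 0.00 over all measured genes, and with plain library totals as the scale it was -0.02, beside -0.04. By the first rule of size, a ratio of at least 2 either way with a counting interval that leaves out 1, 0 of the 45 were higher and 0 were lower. The same rule called 1.63% of all measured genes higher and 2.39% lower. At the levels of the 45 these shares were 0.267% and 0.450%, less than 1 gene of 45, so a count of 0 does not set the 45 apart. For such shares, all measured genes were ordered by mean level and split into 20 classes of equal size, and the share in each class was weighted by how many of the 45 fell there. At those levels, too, 95.4% of genes were within 1.5-fold and 71.4% within 1.2-fold, against 100% and 75.6% of the complex I genes. Of the 45, 25 had a log2 ratio above the median of their own level class.

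**Figure D1:**
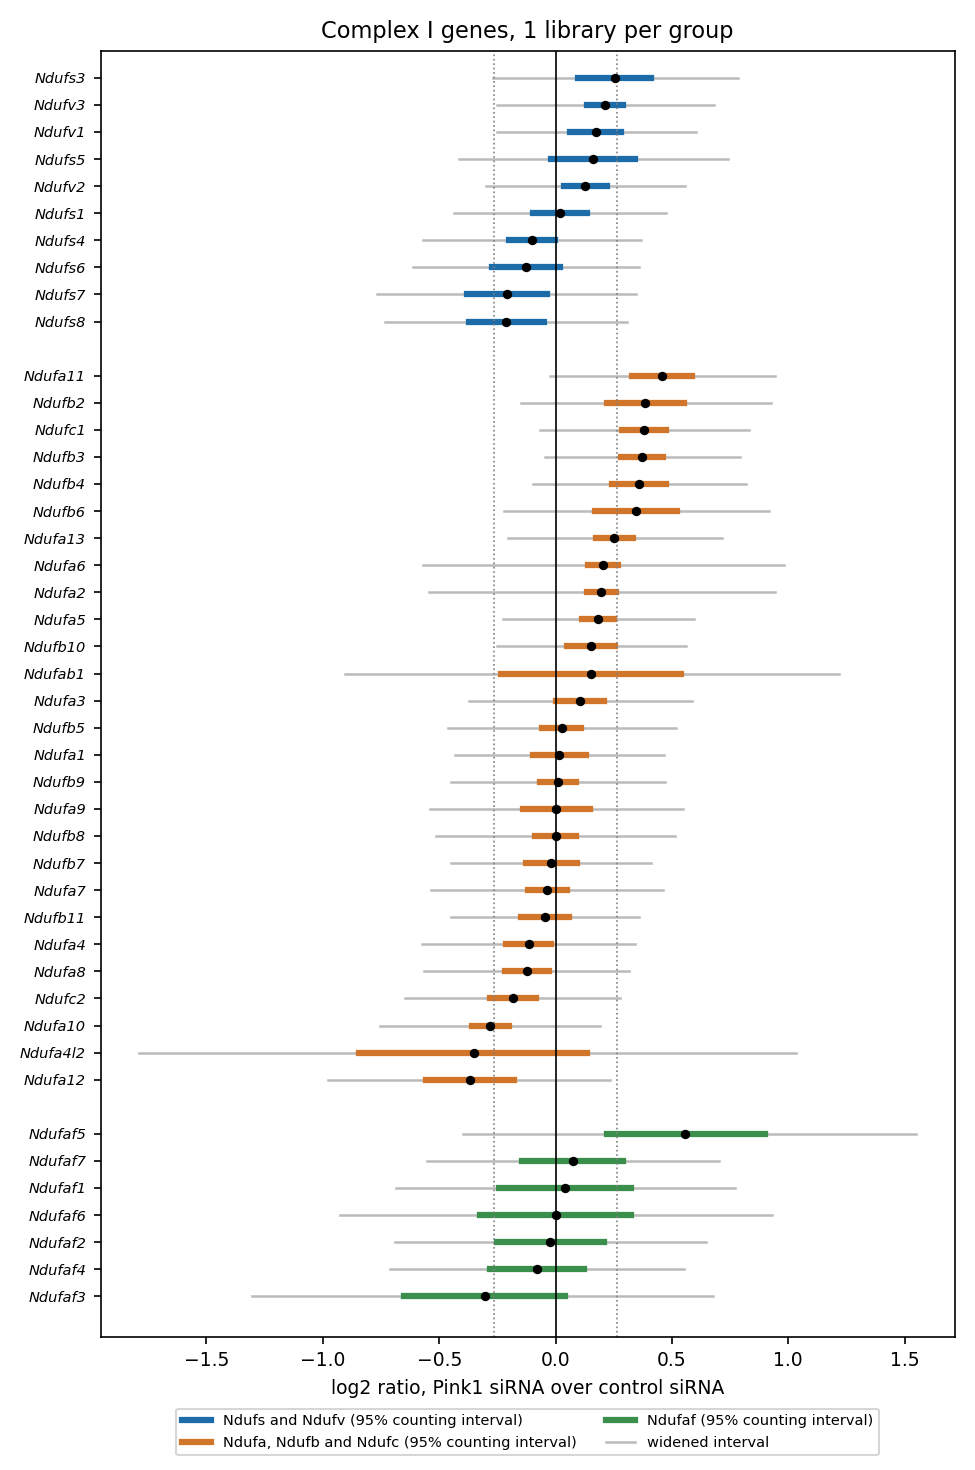
The log2 ratio of each of 44 complex I genes (horizontal axis, Pink1 siRNA over control siRNA, 1 library each) is a black dot, with the 95% counting interval as a thick bar and the widened interval as a thin grey line. Dotted lines mark ratios of 1.2 either way, and all 44 grey lines cross 0.

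A second rule, a ratio of at least 1.2 with a counting interval that leaves out 1, was used to list the genes farthest from 1. It called 7 of the 45 higher and 2 lower, against 16.9% and 17.2% of all measured genes. At the levels of the 45, the weighted shares were 15.01% higher and 11.98% lower, or 6.75 and 5.39 genes of 45. The 7 were Ndufaf5, Ndufa11, Ndufb2, Ndufc1, Ndufb3, Ndufb4 and Ndufb6, and the 2 were Ndufa12 and Ndufa10. The share of higher genes was thus close to the background and the share of lower genes below it. The widened interval left out 1 for 0 of the 45 in either direction, against 2.09% of all measured genes above 1 and 2.01% below. At the levels of the 45 the weighted shares were 2.78% and 1.65%, or 1.25 and 0.741 genes of 45, so this 0 does not set them apart either.

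Among the core subunits of the matrix arm, differences were small and went in both directions. Ndufs3, a Q module subunit (chr2:90894627-90904721), was the highest, at 43.4 CPM in the control and 51.8 CPM in the Pink1 siRNA library, a ratio of 1.19 (counting interval 1.07 to 1.33). Ndufv1, which binds the flavin and NADH, was at 91.2 and 103 CPM (ratio 1.13). Ndufv2, an iron-sulfur subunit of the N module, was at 134 and 146 CPM (ratio 1.09). All 3 Ndufv genes, with the accessory subunit Ndufv3 at 172 and 199.7 CPM (ratio 1.16), were higher in the Pink1 siRNA library, by 1.09 to 1.16-fold. The 10 bases that Ndufv2 shares with Ankrd12 (6076 and 8006 counts) on the same strand make its reads less certain. The end of the Ndufs3 transcript matches a processed pseudogene over 326 bases at 99.7% identity, so its reads are uncertain as well.

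The Q module core subunits that carry iron-sulfur clusters were on the other side. Ndufs8 was at 48.7 CPM in the control and 42.1 CPM in the Pink1 siRNA library, a ratio of 0.864 (counting interval 0.772 to 0.966). Ndufs7, which holds the cluster next to ubiquinone, was at 42.3 and 36.6 CPM, a ratio of 0.865 (0.767 to 0.975). The widened intervals of Ndufs8 (0.602 to 1.24) and Ndufs7 (0.587 to 1.27) included 1. Of the 583 genes in their level class, 129 and 130 had a ratio as low or lower. For Ndufs3, 102 of 583 genes in its class had a ratio as high or higher. Ndufs1, the largest subunit, an N module protein, was at 84.5 and 85.7 CPM (ratio 1.01). Within the 6 genes of the Q module, log2 ratios therefore ran from -0.21 to 0.25. Ndufs1 overlaps Ino80dos (78 and 41 counts), so part of its reads could belong to that gene.

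Not every Ndufs or Ndufv product is a core subunit. Ndufs4, Ndufs5, Ndufs6 and Ndufv3 are accessory by structure. Ndufs4, an N module subunit whose loss causes a Leigh-like disease in mice, was at 121 and 113 CPM (ratio 0.933), and the zinc-binding Ndufs6 at 57.5 and 52.7 CPM (ratio 0.916). Ndufs5, a membrane-arm subunit, was at 34.3 and 38.3 CPM (ratio 1.12), and its transcript end also has a pseudogene copy. The median log2 ratio was 0.10 for the 11 Ndufs and Ndufv genes and also 0.10 for the 7 structural core genes alone. Without the genes that overlap another measured gene, it was 0.03 for the Ndufs and Ndufv genes and 0.11 for the Ndufa, Ndufb and Ndufc genes, so the order of these classes depends on that choice. Of the 11 genes, 7 had a ratio above 1 and 4 below, and 0 passed the second rule in either direction. All 11 were within 1.2-fold, against 74.9% of genes at their levels.

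Of the 27 Ndufa, Ndufb and Ndufc genes, 6 passed the second rule as higher and 2 as lower, where the weighted shares at their levels amount to 3.92 and 2.60 genes. Ndufa11, a subunit at the base of the membrane arm (chr17:56717762-56724248), was the farthest from 1 among the subunits, with 851 counts in the control and 1168 in the Pink1 siRNA library. Its levels were 60.8 and 83.4 CPM, a ratio of 1.37 (counting interval 1.26 to 1.501, widened 0.984 to 1.92). Of the 583 genes in its level class, 22 had a ratio as high or higher. Ndufc1, a small membrane-arm subunit with 76 residues in its longest annotated coding transcript, was at 112 and 145 CPM, a ratio of 1.30 (1.22 to 1.39). Its partner by name, Ndufc2, was at 127 and 112 CPM, a ratio of 0.880 (0.822 to 0.943). The pair thus differed in direction while lying in the same level class.

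Ndufb genes make up most of the distal membrane arm. Of the 10, 7 had a ratio above 1, 2 below and 1 equal counts, where 50.3% of all measured genes were above 1. Against the median log2 ratio of their own level classes, 5 of the 10 were above. By the second rule 4 were higher and 0 lower. Ndufb2 was at 37.2 CPM in the control and 48.6 CPM in the Pink1 siRNA library (ratio 1.31, counting interval 1.16 to 1.47). Ndufb3 was at 128 and 165 CPM (ratio 1.29, interval 1.22 to 1.38). Ndufb4 was at 75.7 and 97.0 CPM (ratio 1.28, interval 1.18 to 1.39), and Ndufb6 at 33.9 and 43.1 CPM (ratio 1.27, interval 1.12 to 1.43). These 4 small membrane-anchored subunits were picked by the second rule, so the closeness of their ratios is partly set by that choice. Their levels spanned from 38.5 to 147 CPM on average. The weighted share of genes called higher at the Ndufb levels was 13.0%, or 1.30 genes of 10. Between 31 and 45 of 583 genes in their level classes had a ratio as high or higher than each of them.

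The other 6 Ndufb genes stayed closer to 1. Ndufb10 was at 102 and 114 CPM (ratio 1.11, counting interval 1.03 to 1.195), and Ndufb8 had 2155 counts in each library. Ndufb5 (ratio 1.02), Ndufb9 (1.01), Ndufb7 (0.988) and Ndufb11 (0.969) had counting intervals that included 1. The lowest of the 10, Ndufb11, was at 109 CPM in the control and 106 CPM in the Pink1 siRNA library. Ndufb genes thus fell into a set of 4 near 1.3-fold and a set of 6 between 0.969 and 1.11-fold, a split described from the values and not tested. Reads of 3 of the 4 are uncertain, since the last 400 bases of the longest Ndufb2, Ndufb3 and Ndufb6 transcripts match another annotated gene over at least 100 bases at 95% identity or more. Those genes are Braf, the kinase gene, for Ndufb2 (829 and 893 counts), a processed pseudogene for Ndufb3 and Smim27 for Ndufb6. Among the other 6, reads of Ndufb11 are uncertain too. Its transcript end matches a processed pseudogene over 307 bases at 98.05% identity, and it overlaps Rbm10 by 263 bases (859 and 894 counts).

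**Figure D2:**
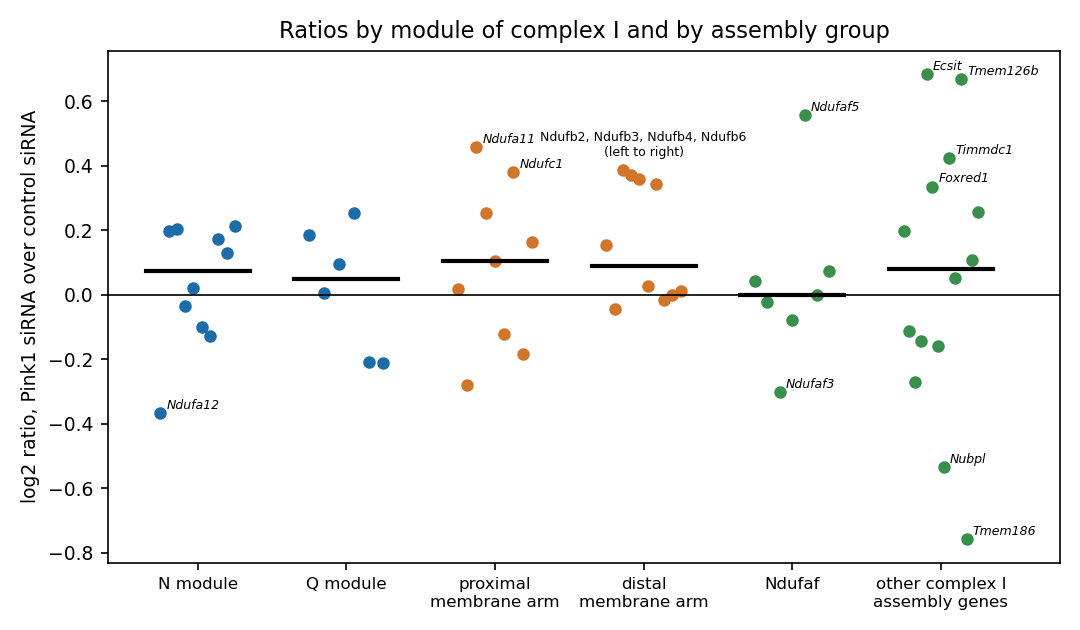
Each dot is the log2 ratio of 1 gene (vertical axis, Pink1 siRNA over control siRNA), by module of complex I, for the 7 Ndufaf genes and for 14 assembly genes with other symbols; black lines are medians, and dots beyond 0.3 either way are named. Ndufa4, Ndufa4l2 and Ndufab1 were not on the module lists used here and are not drawn, although Ndufab1 was counted as a complex I subunit.

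Among the Ndufa genes, those called lower by the second rule were Ndufa12 and Ndufa10. By ratio alone Ndufa4l2, given below, lay between them at 0.783, with a counting interval that included 1. Ndufa12, an N module subunit (chr10:94199035-94221440), was at 37.8 CPM in the control and 29.3 CPM in the Pink1 siRNA library, a ratio of 0.775 (counting interval 0.680 to 0.883, widened 0.508 to 1.18). Of 583 genes in its level class, 56 had a ratio as low or lower. Ndufa10, a membrane-arm subunit with a fold like that of nucleoside kinases (chr1:92439486-92473825), was at 200.2 and 165 CPM, a ratio of 0.823 (0.779 to 0.870, widened 0.593 to 1.14). In its class, 29 of 583 genes had a ratio as low or lower. Neither gene overlaps another measured gene.

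Of the 9 Ndufa genes above 100 CPM on average, 5 had a ratio above 1 and 4 below, and only Ndufa10 passed the second rule. Ndufa13, also called GRIM-19, was at 174 and 208 CPM (ratio 1.19). The N module gene Ndufa6 was at 258 and 297 CPM (ratio 1.15), Ndufa2 of the same module at 281 and 322 CPM (ratio 1.15), and the Q module gene Ndufa5 at 223 and 254 CPM (ratio 1.14). These were the 4 most abundant of the 45 genes, and their counting intervals lay above 1. In the highest level class, which holds Ndufa6 and Ndufa2, the median log2 ratio of all genes was itself 0.09. The remaining Ndufa genes were near 1, with Ndufa3 at a ratio of 1.08, Ndufa1 at 1.01, Ndufa9 at 1.003, Ndufa7 at 0.976 and Ndufa8 at 0.918. Ndufa2 overlaps Tmco6 by 69 bases (195 and 234 counts), and Ndufa1 overlaps Rnf113a1 by 17 bases (61 and 47 counts).

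Symbols of this family also cover products with other roles. Ndufa4 encodes a protein now known as a subunit of cytochrome c oxidase, and was at 128 CPM in the control and 118 CPM in the Pink1 siRNA library, a ratio of 0.923 (counting interval 0.863 to 0.987). Its hypoxia-inducible paralog Ndufa4l2 had 83 and 65 counts (5.93 and 4.64 CPM), a ratio of 0.783 (0.557 to 1.10), and shares 32 bases with Shmt2 (651 and 632 counts). Ndufab1, the mitochondrial acyl carrier protein, which serves fatty acid and lipoic acid synthesis as well as complex I, had 109 and 121 counts (7.78 and 8.64 CPM). For Ndufa4l2 and Ndufab1 a difference of the size seen here was not detectable at this depth. Over all 27 Ndufa, Ndufb and Ndufc genes, 17 ratios were above 1, 9 below and 1 equal, with a median log2 ratio of 0.03. Against the median of their own level classes, 14 of the 27 were above. By structure, with Ndufa4 and Ndufa4l2 left out and the 4 accessory Ndufs and Ndufv genes added, the median of 29 genes was 0.11.

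By arm, 6 of the 19 membrane-arm genes and 0 of the 16 matrix-arm genes passed the second rule as higher, and 1 of each passed as lower. Over all measured genes the shares were 16.9% higher and 17.2% lower. At the levels of each arm's own genes, the weighted share called higher was 13.6% for the membrane arm (2.57 genes of 19) and 14.6% for the matrix arm (2.34 genes of 16). The difference between the arms was not tested. The medians were closer, at 0.11 for the membrane arm and 0.06 for the matrix arm. Summed over genes, the membrane arm was at 2132 CPM in the control and 2264 CPM in the Pink1 siRNA library (ratio 1.06), and the matrix arm at 1900 and 2039 CPM (ratio 1.07). The summed ratios of the arms were thus nearly equal. Summed over all measured genes the ratio was 1.03. The matrix-arm sum holds the 3 most abundant genes of the 45, Ndufa2, Ndufa6 and Ndufa5.

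The 7 assembly factors were less abundant than nearly all subunits. Their mean levels over the 2 libraries ran from 10.2 CPM (Ndufaf3) to 28.8 CPM (Ndufaf4), and 36 of 38 subunit genes were above that range, from 33.5 CPM for Ndufa12 to 302 CPM for Ndufa2. The exceptions were Ndufa4l2 at 5.28 CPM and Ndufab1 at 8.21 CPM. Because each transcript is tagged near its 3′ end, these levels are not divided by length, and how efficiently each gene is tagged is not known. The order of the 45 levels was nearly the same in both libraries (Spearman rho 0.985 across genes, a description of genes that share 2 libraries).

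**Figure D3:**
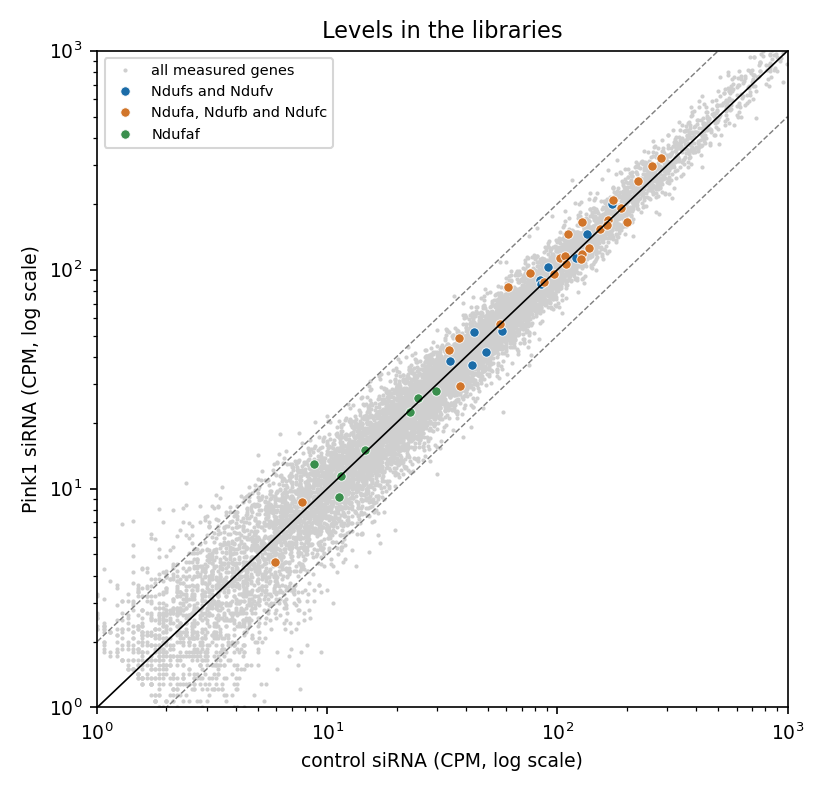
Levels of the 45 complex I genes in the control library (horizontal) and the Pink1 siRNA library (vertical), in CPM on log scales, over all measured genes in grey. The solid line marks equal levels and the dashed lines a 2-fold difference, and all 45 genes lie between the dashed lines.

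Assembly factors were on both sides of 1, with Ndufaf5 standing farthest from it. Ndufaf5, which hydroxylates an arginine of Ndufs7 (chr2:140170584-140218965), had 123 counts in the control and 181 in the Pink1 siRNA library. Its levels were 8.78 and 12.9 CPM, a ratio of 1.47 (counting interval 1.16 to 1.87, widened 0.759 to 2.93), the highest of all 45 genes. In its level class 43 of 583 genes had a ratio as high or higher. Ndufaf7, a methyltransferase needed for assembly, was at 24.7 and 26.0 CPM (ratio 1.05). Ndufaf1, a member of the MCIA complex that builds the membrane arm, was at 14.6 and 15.1 CPM (ratio 1.03).

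The other 4 assembly factors were level or lower. Ndufaf6 had 160 counts in each library. Ndufaf2, a paralog of Ndufa12 that holds its place during assembly, was at 22.8 and 22.4 CPM (ratio 0.984, counting interval 0.840 to 1.15). Ndufa12 had 0.775 (0.680 to 0.883), and the intervals of the paralogs overlap. Ndufaf4 and Ndufaf3 act as a pair on the Q module, and were at 29.6 and 28.0 CPM (ratio 0.947) and at 11.3 and 9.14 CPM (ratio 0.810, counting interval 0.637 to 1.03). In all, 3 ratios were above 1, 3 below and 1 equal, with a median log2 ratio of 0.00. The second rule took 1 as higher and 0 as lower, where the weighted shares at their levels were 18.5% and 22.4%. The counting interval left out 1 for Ndufaf5 and included 1 for the other 6, where it left out 1 for 5967 of 11660 measured genes.

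Assembly genes of complex I without an Nduf symbol varied more than the 45. The SD of their log2 ratios was 0.42, beside 0.22 for the 45 and 0.46 over all measured genes. They were also less abundant, with a median control level of 27.6 CPM against 87.2 CPM for the 45. The part of level in their wider spread was not tested. Of 15 such genes listed, 14 had a row, and all 14 were measured. For 2 of them the row was found through an older symbol, and 1810043H04Rik was listed by its older symbol from the start. Their log2 ratios ran from -0.76 to 0.68 with a median of 0.08, 8 above 0 and 6 below. Ecsit, an MCIA member, had 176 counts in the control and 283 in the Pink1 siRNA library, or 12.6 and 20.2 CPM (ratio 1.61, counting interval 1.33 to 1.95). Tmem126b, also of MCIA, had 81 and 129 counts (ratio 1.59, interval 1.197 to 2.13). Tmem186, another MCIA protein, had 107 and 63 counts (ratio 0.589, interval 0.424 to 0.811), and Nubpl, which delivers iron-sulfur clusters, had 35 and 24 (ratio 0.686, interval 0.390 to 1.19). Transcripts for members of the same assembly complex thus had ratios on both sides of 1. Acad9, also of MCIA, was at 0.924 (0.793 to 1.08) and Ndufaf1 at 1.03 (0.845 to 1.25), and both intervals include 1.

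By the second rule 4 of these 14 genes were higher and 2 lower, against the same 16.9% and 17.2% of all measured genes, and 0 passed the first rule. The widened intervals of Ecsit (0.938 to 2.81), Tmem126b (0.756 to 3.48), Tmem186 (0.241 to 1.36) and Nubpl (0.150 to 2.79) all included 1. Tmem186 overlaps Pmm2 by 99 bases (253 and 245 counts) and Ecsit overlaps a predicted gene (34 and 59 counts), so their reads are uncertain. The row 1810043H04Rik, whose current RefSeq symbol is Ndufaf8, the partner of Ndufaf5, does not match the symbol rule and was among the 14. It was at 48.4 CPM in the control and 55.5 CPM in the Pink1 siRNA library, a ratio of 1.15 (counting interval 1.03 to 1.27).

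Subunit genes of complexes II to V were set beside those of complex I. Of 47 subunit genes listed with a row, 40 were measured, 24 had a ratio above 1 and 16 below, with a median log2 ratio of 0.06. The single complexes had medians of -0.04 (complex II), 0.02 (III), 0.06 (IV) and 0.13 (V). For the 36 complex I subunits left without Ndufa4 and Ndufa4l2 the median was 0.10, with 24 above 1, 11 below and 1 equal. With those 2 genes, as the symbols have it, it was 0.06. Against the medians of their own level classes, 21 of the 36 and 24 of the 40 were above. Over all measured genes 50.3% of ratios were above 1. The SD of the log2 ratio across genes was 0.20 for these 36 subunits and 0.17 for complexes II to V. It was 0.34 over the 9549 measured genes within the level range of the 45. Those genes were less abundant, with a median control level of 32.5 CPM, against 105 CPM for the 36 and 148 CPM for complexes II to V. The part of level in these spreads was not tested. The second rule called 7 of the 40 genes higher (17.5%) and 0 lower, and 6 of the 36 higher (16.7%) and 2 lower, where 16.9% of all measured genes were called higher and 17.2% lower. The 1 widened interval that left out 1 among these genes was that of Sdhd, a membrane anchor of complex II, with 466 and 738 counts. Whether complex I differs from the other complexes was not tested, since genes are not replicates.

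**Figure D4:**
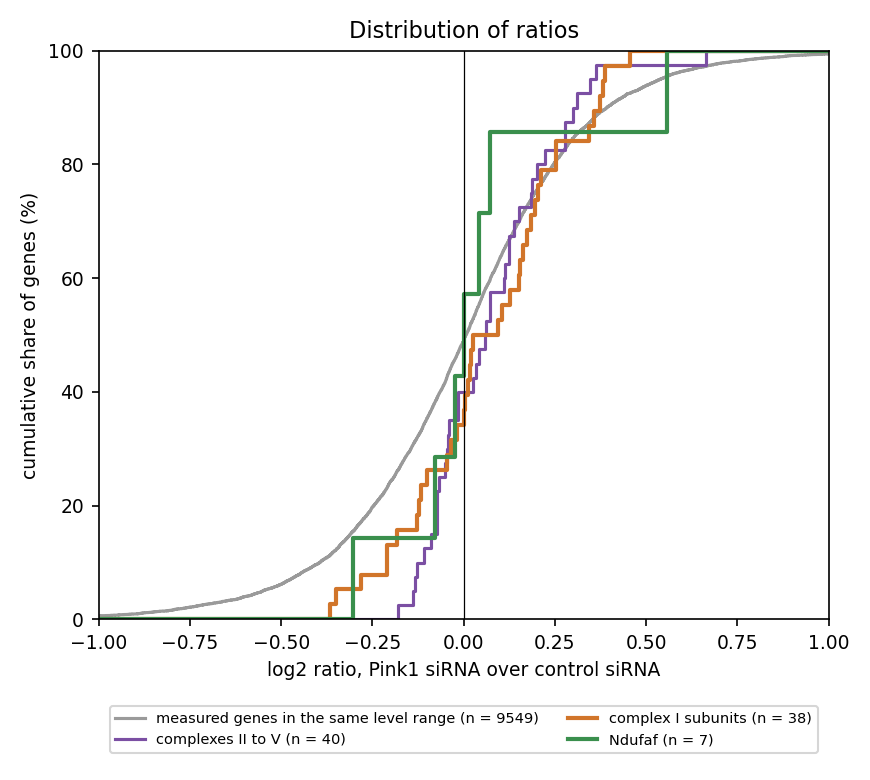
Cumulative share of genes (vertical, in percent) at or below each log2 ratio (horizontal, Pink1 siRNA over control siRNA) for 38 complex I subunits by symbol (Ndufa4 and Ndufa4l2 included), 7 Ndufaf genes, 40 measured subunits of complexes II to V and the 9549 measured genes within the level range of the 45. The orange curve of complex I subunits starts at -0.37 and ends at 0.46, while the grey curve extends beyond both.

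Together the 45 genes took 0.436% of the control counts (exact 95% binomial interval 0.433 to 0.439) and 0.449% of the Pink1 siRNA counts (0.446 to 0.453). On effective library sizes this was 4296 CPM against 4559 CPM, a ratio of 1.06 with a counting interval of 1.05 to 1.07 and no replicate check. The same sum had a ratio of 1.030 (1.029 to 1.031) over all measured genes. Over the 9549 measured genes within the level range of the 45 it was 1.015 (1.014 to 1.016). The genes lie on 16 chromosomes with at most 6 on any of them, and 42 of the 45 have a transcript no longer than the median of measured genes. The longest coding transcript had a median of 1005 bases for the 45 genes against 3170 bases over measured genes with one, and the encoded protein 157 against 458 residues. Across the 45 genes the log2 ratio had a Spearman rho of 0.02 with transcript length, against -0.12 across 10749 measured genes. Both are descriptions across genes of the same 2 libraries.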

How the data were processed

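RNA of 2 samples was measured with 3′ tag libraries (QuantSeq kit, per the labels' protocols). The authors deposited raw counts by gene symbol. The submitters' processing notes name mm10 and the tools bcl2fastq (2.20.0.422), Bowtie2 and bedtools. Annotation, multiply mapped reads and strand use are not given in the sources used here.

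Counts were scaled by TMM in edgeR 4.0.16 (R 4.3.3), and log2 ratios had 0.5 added to scaled counts. A gene was measured at a summed count of at least 40. Ratios have exact conditional binomial (Clopper-Pearson) 95% intervals (SciPy 1.17.1), and shares have exact binomial intervals; both cover counting error only. With 1 library per group no p-value was computed and no count model was fitted. The calculation was tested on simulated counts. The widened interval divides both counts by the mean squared difference over its binomial variance in the gene's level class (20 classes). Differences of any origin between the 2 libraries enter that divisor, which was 128 in the highest class. Overlaps used RefSeq spans, copies used BLAST 2.17.0 against GENCODE M21 transcripts, and coordinates are 1-based on mm10. Modules, core and accessory classes follow general knowledge of the complex.

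The genes and lists were chosen with earlier results of these data known. Genes named with values were the 3 highest and 3 lowest of each symbol class, all Ndufaf genes, the most and least abundant, and the 2 highest and 2 lowest of the other assembly genes. The remaining Nduf genes are given too, except 1 that is not reported here by name, and Dlk1, 1810043H04Rik, Acad9 and Sdhd were picked after their values were seen. Alternatives were total-count, DESeq2 (1.42.0) and upper-quartile scaling, 5 added, no filter or 200 counts, structural classes, leaving out overlapping genes, summed counts, the precursor ribosomal RNA row left out, 1.5-fold, the widened interval and subtraction of the level-class median, which was added after seeing the data.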

Additional observations from a re-analysis of the deposited data

How the results depend on the processing

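With 1 library per group, no setting replaces a replicate. No paired analysis was possible because each group has 1 library and no replicate numbers. The median log2 ratio of the 45 genes ranged from -0.02 (total counts) to 0.09 (summed counts) over the settings tried, and total counts moved the median of all measured genes to -0.04. Each of the 42 recomputed medians, over the 45 genes and their 3 classes, moved by less than the median reach of the genes' counting intervals. That measure is loose for medians this close to 0. The median of the Ndufa, Ndufb and Ndufc genes met it both at -0.02 (total counts) and at 0.11 (overlapping genes left out). Leaving out overlapping genes still turned the order of the classes, with 0.03 for Ndufs and Ndufv and 0.11 for Ndufa, Ndufb and Ndufc genes. Of 180 recomputed ratios of single genes, 14 took the other sign or became 0, in 8 genes, and 0 of these genes had a counting interval that left out 1. The count past the first rule was 0 in both directions with each of the other scalings and filters, at 1.5-fold and with the widened interval. At 1.5-fold or with the widened interval, the 7 higher and 2 lower genes of the second rule became 0 and 0. With total counts there were 7 higher and 3 lower, with Ndufaf3 added at a log2 ratio of -0.34. Leaving the precursor ribosomal RNA row out of the library total moved the share of the 45 genes to 0.489% in the control and 0.498% in the Pink1 siRNA library. Depth limits the Ndufaf genes, Ndufab1 and Ndufa4l2 most.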
